A study of Homo sapiens with 18 samples.

Results

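A set of 10 genes of epithelial polarity, polarised membrane sorting and the surface protease prostasin were followed across 9 isogenic clones of HCT116, an established human colorectal carcinoma line. They were RAB25, MYO5B, MAL2, AP1M2, CRB3, PATJ, PARD6B, LLGL2, PRSS8 and TTC22, that is 10 of the 19775 genes named on the array, and all 24 of their probe sets among 54675 were read. The genes had been picked because their signals differed between these clones, so their values are given as a description. Of the 24 probe sets, 15 passed the filter on low signal and 9 did not, and every gene kept at least 1.

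The series asked how mutations of IDH1 and IDH2, which encode isocitrate dehydrogenases of the cytosol and of mitochondria, alter the epithelial state of these cells. Beside the unedited parental line stood 2 clones carrying IDH2 R140Q (8G12, 17H5), 2 carrying IDH2 R172K (47C2, 45G3), 2 carrying IDH1 R132H (2C11, 2H1) and 1 carrying IDH1 R132C (3A4). A further clone, 16F8, was targeted with IDH1 R132C but does not express the mutant allele, and its mRNA is listed as wild-type. All targeted clones are heterozygous, none was treated, and the cells were lysed for total RNA once they had grown for 6 days. Each clone was hybridised as 2 biological replicates, giving 18 one-colour Affymetrix arrays. Every targeted line is a single clone, so each mutant genotype rests on 2 clones, or on 1 for R132C, and a difference between a clone and the parental line contains whatever else sets that clone apart. The labels do not say whether replicates were separate cultures, so errors measure the spread between these arrays.

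Values are MAS5 signals on a linear scale that the authors had brought to 1 level, with a mean of 150 for the middle 96% of probe sets in every array and array medians of 12.3 to 15.6. Differences are on the log2(signal + 2.2) scale, on which a low signal gives an understated difference. The epithelial markers EPCAM, CDH1, KRT8, KRT18 and CDX2 lay above the array median in 18 of 18 arrays and KRT20 in 15, whereas CDX1, VIL1, LGALS4 and CEACAM5, genes of differentiated colonocytes, lay below it in every array. The 4 endothelial markers were below the median in every array, with a summed signal of 11 to 23.9 in wild-type and 7.3 to 19.6 in mutant arrays, as were 6 of 8 fibroblast markers. The exceptions were COL1A1, at 187 to 358.5 above the median throughout, and PDGFRB, at 5.6 to 17.2 above it in 1 array. The 8 fibroblast markers summed to 246 to 375.5 in wild-type and 203.7 to 316 in mutant arrays. Of 5 haematopoietic markers PTPRC, CD14 and CD3E were below the median throughout, HLA-DRA was above it throughout at 22.2 to 102, LYZ was above it in 14 arrays at 8.2 to 142, and the list summed to 65.3 to 106 in wild-type and 47.4 to 177.5 in mutant arrays. A group of 4 arrays stood apart by their poly-A labelling controls, parental replicate 1, 16F8 replicate 1, 2C11 replicate 1 and 8G12 replicate 2, with a mean log2 of 7.03 to 7.28 against 5.80 to 6.59 in the others. Over the 18 arrays, deviations from the clone mean went with this level for RAB25 (r = 0.749), CRB3 (0.575), PATJ (0.546), MYO5B (0.521) and AP1M2 (0.50) and against it for LLGL2 (-0.74), and r lay between -0.202 and 0.128 for the other 4 genes. The 2 arrays of a clone share these deviations with opposite sign, so this is a description. Without the 4 arrays, 37 in place of 45 gene and clone pairs of the 10 genes were called lower than parental. Some refits with the poly-A level as a covariate or without these arrays are given below. Its part in the results beyond such refits was not tested.

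Epithelial cells keep an apical and a basolateral surface apart with conserved protein modules. The Crumbs module (CRB3, PALS1, PATJ) and the Par module (PARD3, PARD6, atypical protein kinase C) mark the apical side and the tight junction, and the Scribble module with the LLGL proteins marks the basolateral side. Sorting machinery then delivers cargo to each surface. RAB25 is an epithelial GTPase of the Rab11 family that works at the apical recycling endosome, MYO5B is the actin motor that carries Rab11 vesicles, MAL2 is a proteolipid of transcytosis to the apical surface, and AP1M2 is the mu1B subunit that turns the clathrin adaptor AP-1 into its epithelial form, AP-1B, which sorts cargo to the basolateral surface.

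Because most of these genes were lower together in several clones, the promoters of the set were read for the 6-base E-box CACCTG. This motif, CAGGTG on the other strand, is bound by the epithelial repressor ZEB1, whose action on these genes was not tested. RefSeq windows on GRCh38.p14 from 250 bases before to 50 bases after the annotated start existed for 6 of the 10 genes, and each of the 6 held at least 2 copies: 5 in CRB3, 3 each in AP1M2, PATJ and MYO5B, and 2 each in RAB25 and TTC22. Of 35116 RefSeq windows of that length, 20.6% held at least 1 copy, 3.5% at least 2 and 0.6% at least 3. Among 10239 windows of the genes tested here the shares were 18.7%, 2.7% and 0.4%. The 250 bases before the start are printed for RAB25, AP1M2 and CRB3, whose clone means were lower in the R132 and R172K clones than in the other 4, and for MYO5B, whose brighter probe set did not separate them. Capitals mark the motif on either strand.
RAB25, chr1:156060910-156061159, plus strand: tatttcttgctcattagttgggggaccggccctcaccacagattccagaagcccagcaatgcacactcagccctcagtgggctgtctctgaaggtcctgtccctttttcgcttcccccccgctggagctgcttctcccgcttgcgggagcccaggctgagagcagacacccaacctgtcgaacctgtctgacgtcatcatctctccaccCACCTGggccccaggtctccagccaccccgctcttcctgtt
AP1M2, chr19:10587313-10587562, minus strand: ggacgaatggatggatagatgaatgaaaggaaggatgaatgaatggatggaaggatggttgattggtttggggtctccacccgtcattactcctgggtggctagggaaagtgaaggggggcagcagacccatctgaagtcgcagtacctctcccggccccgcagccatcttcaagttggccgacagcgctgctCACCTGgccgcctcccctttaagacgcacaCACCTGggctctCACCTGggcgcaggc
CRB3, chr19:6464021-6464270, plus strand: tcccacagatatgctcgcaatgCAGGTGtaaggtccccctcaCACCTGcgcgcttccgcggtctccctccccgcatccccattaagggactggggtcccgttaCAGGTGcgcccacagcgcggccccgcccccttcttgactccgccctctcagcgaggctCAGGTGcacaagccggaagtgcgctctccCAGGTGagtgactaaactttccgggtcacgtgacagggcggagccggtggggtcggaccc
MYO5B, chr18:50195148-50195397, minus strand: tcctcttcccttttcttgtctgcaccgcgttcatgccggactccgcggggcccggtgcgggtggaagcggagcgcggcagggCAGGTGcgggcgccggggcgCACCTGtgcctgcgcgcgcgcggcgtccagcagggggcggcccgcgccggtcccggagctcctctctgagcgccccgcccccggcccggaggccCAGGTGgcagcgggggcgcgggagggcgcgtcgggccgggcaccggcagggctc

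In AP1M2 the first bases of the 3 copies lie 57, 27 and 15 bases before the start. In CRB3 the 5 copies are spread from 228 to 60 bases before it. RAB25 has 1 copy 41 bases before the start and another 38 bases into the transcript, which is not printed. The MYO5B window has as many copies as that of AP1M2. Across the clones the brighter MYO5B probe set ranged over 0.39 on the log2 scale and that of AP1M2 over 3.25. Whether the motif bears on the signal of any of these genes was not tested. A match describes letters only. Windows of 17 paralogs and direct partners of these genes were read in the same way, and 4 of them (AP1B1, MYO5A, MYO5C and PARD6A) held 1 copy each and 0 held more. Over the tested genes outside the set, the share called lower than parental in 2H1 was 15.2% of 8329 genes without a copy, 16.7% of 1633 with 1, 24.7% of 239 with 2 and 46.9% of 32 with 3 or more. In 17H5 these shares were 4.8%, 5.9%, 8.8% and 18.8%, and in wild-type 16F8 they were 9.4%, 9.9%, 13.0% and 18.8%. The share at 3 or more copies was highest in 2H1. It was 40.6% in 47C2, 37.5% in 3A4, 34.4% in both 45G3 and 2C11, and 21.9% in 8G12. The median GC content of the windows went up along with the number of copies, from 65.3% through 65.7% and 66.7% to 68.2%. Its part in these shares was not tested.

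RAB25 was lower than in parental in all 8 other clones, least in 16F8 and most in 2H1. Its signal was 1606 and 1437 in the 2 parental arrays and 1341 and 1239 in those of 16F8. The R140Q clones gave 1178 and 1126 (8G12) and 1177 and 1115 (17H5). In the R172K clones it was 547 and 511 in 47C2 and 762 and 853 in 45G3. In the IDH1 clones it was 924 and 860 for 2C11, 116 and 113 for 2H1, and 252 and 227 for 3A4. The wild-type arrays lay above all mutant arrays, the R140Q clones overlapped each other, and 2H1 lay apart from every other clone. The log2 difference from parental was -3.71 ± 0.10 (SE, n = 2 arrays per clone) for 2H1, -2.66 for 3A4 and -1.52 for 47C2, which corresponds to 7.5%, 15.7% and 34.8% of the parental mean. It was -0.91 for 45G3, -0.77 for 2C11, -0.41 for 17H5, -0.40 for 8G12 and -0.24 for 16F8. In bulk RNA fewer expressing cells and less RNA per cell cannot be told apart.

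MYO5B, the motor partner of Rab11 vesicles, did not follow RAB25. Its brighter probe set read 474.5 to 634 over the 18 arrays, and the wild-type range of 521.5 to 629 overlapped that of 6 of the 7 mutant clones, 45G3 excepted. The log2 differences from parental ran from -0.25 in 45G3 to 0.14 in 17H5, each with an SE of 0.10. A dimmer MYO5B probe set at 182 to 311 was -0.57 in 3A4 and -0.51 in 47C2, both called when probe sets were tested singly (limma adjusted p = 0.0066 and 0.0185), and between -0.39 and 0.00 elsewhere, and a further one read at most 2.6.

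MAL2 had the widest range of the sorting genes. It read 2547 and 2891 in parental and 2026 and 2355.5 in 16F8. The R140Q clones gave 2147 and 1921 (8G12) and 2132 and 2190.5 (17H5). It read 559 and 596 in 47C2 but 1126 and 1545 in 45G3, although both carry R172K. It read 1820.2 and 1896.5 in 2C11 but 49.7 and 52.5 in 2H1, although both carry R132H. The 3A4 arrays read 713 and 727. The R140Q arrays overlapped 16F8, 2C11 lay just below them, and 2H1 stood at 1.9% of the parental mean, a log2 difference of -5.67 ± 0.12 (SE). The differences were -2.23 for 47C2, -1.04 for 45G3, -1.91 for 3A4 and -0.55 for 2C11, and lay from -0.42 to -0.31 in 8G12, 17H5 and 16F8.

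AP1M2 split the clones into a high and a low set with a gap between them. It read 232 and 231.5 in parental and 181 and 175 in 16F8. The R140Q clones gave 164 and 178 (8G12) and 193 and 192 (17H5). It read 44.3 and 42.3 in 47C2 and 55.4 and 83.2 in 45G3. The IDH1 clones gave 89.4 and 77.5 (2C11), 21.8 and 23.1 (2H1), and 38.8 and 44.8 (3A4). Every array of the R132H, R132C and R172K clones was at or below 89.4, and every other array was at or above 164. The log2 difference from parental was -2.36 for 47C2, -1.74 for 45G3, -1.45 for 2C11, -3.25 ± 0.17 (SE) for 2H1 and -2.41 for 3A4, against -0.43 to -0.26 in 16F8 and the R140Q clones. The second AP1M2 probe set gave -2.60, -1.39, -1.25, -2.99 and -2.32 in those 5 clones, in the same order.

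**Figure D1:**
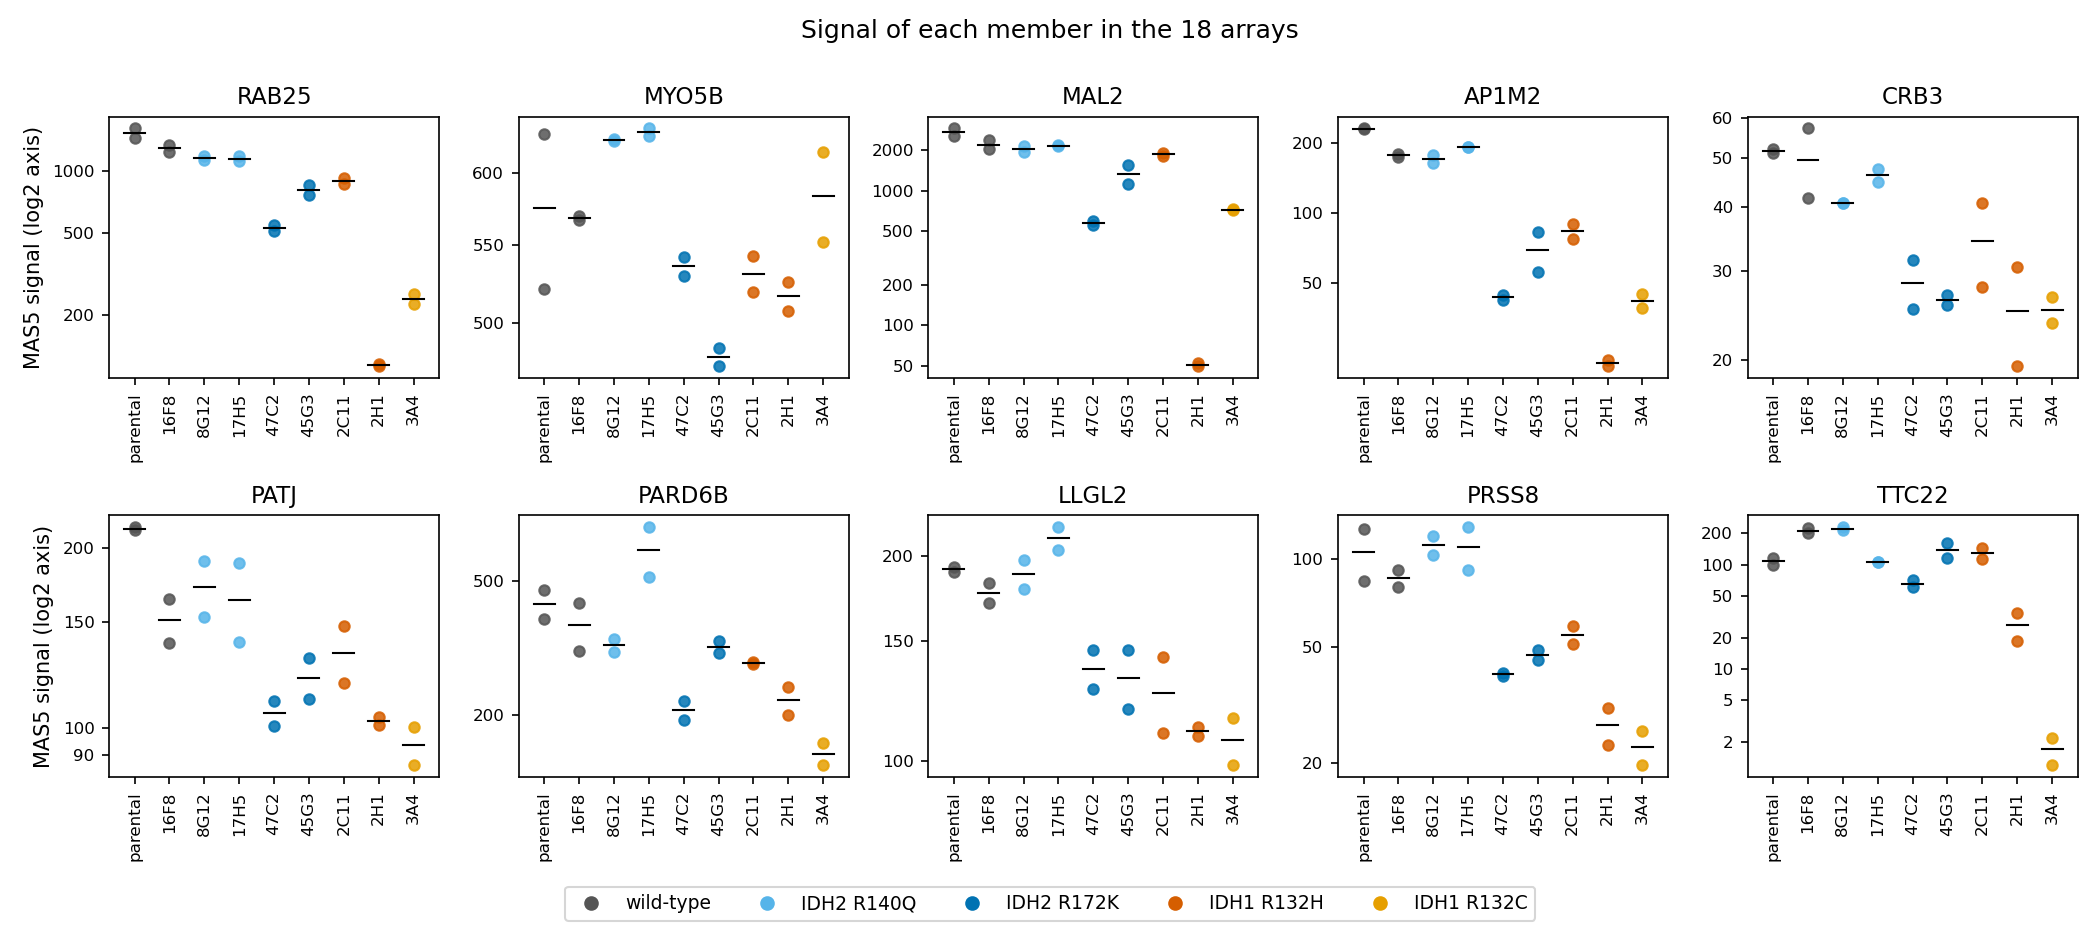
MAS5 signal (log2 axis, with a scale of its own in each panel) of the representative probe set of the 10 genes in 18 arrays. Points are single arrays and bars are clone means of 2 arrays, with points coloured by genotype. RAB25, AP1M2, LLGL2 and PRSS8 leave a gap between the R132 and R172K clones and the other 4. MAL2 leaves a narrow gap, and MYO5B spans only 474.5 to 634.

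Of the Crumbs module, CRB3, the transmembrane Crumbs protein of epithelia, was dim throughout. It read 52.3 and 51.3 in parental and 57.3 and 41.8 in 16F8. The R140Q clones gave 40.8 and 40.9 (8G12) and 47.6 and 45.0 (17H5). It read 31.5 and 25.2 in 47C2 and 25.7 and 26.8 in 45G3. The IDH1 clones gave 40.8 and 27.8 (2C11), 19.4 and 30.5 (2H1), and 26.6 and 23.6 (3A4). A single 2C11 array reached the level of 8G12, and the other low clones stayed at or below 31.5. The log2 difference from parental was -0.83 for 47C2, -0.92 for 45G3, -0.59 for 2C11, -1.02 ± 0.24 (SE) for 2H1 and -0.99 for 3A4.

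PATJ, the multi-PDZ scaffold of the Crumbs module, read 216 and 214 in parental and was lower in every other clone, 16F8 included at 164 and 139. Its log2 difference was -1.01 for 47C2, -0.82 for 45G3, -0.69 for 2C11, -1.05 ± 0.17 (SE) for 2H1 and -1.19 for 3A4, and the R140Q clones, at 139 to 190.2, overlapped 16F8. The 2C11 arrays read 148 and 119 and overlapped 16F8 and 17H5. A pair of further PATJ probe sets passed the filter and had negative differences in all 8 clones, from -1.35 to -0.13. Another 3 PATJ probe sets read at most 13.6.

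PARD6B, which links Cdc42 to atypical protein kinase C in the Par module, was lowest in 3A4 at 142 and 165 and highest in 17H5 at 513 and 719.9. Parental read 386 and 469.6 and 16F8 428.5 and 309, a spread that covered 45G3 at 332 and 306 in part and 8G12 at 308 and 336. The 47C2 arrays read 220.5 and 193, the 2H1 arrays 201 and 243, and the 2C11 arrays 284 and 288. The log2 difference was -1.04 for 47C2, -0.57 for 2C11, -0.94 ± 0.17 (SE) for 2H1, -1.46 for 3A4 and 0.51 for 17H5. The other 2 PARD6B probe sets read 0.5 to 8.0 and did not pass the filter.

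LLGL2, a basolateral polarity protein phosphorylated by atypical protein kinase C, gave a direction that depends on the probe set. Its brighter probe set read 170.2 to 220.4 in the wild-type and R140Q arrays and 98.5 to 145 in the arrays of the other 5 clones, without overlap. The log2 difference from parental was -0.48 for 47C2, -0.53 for 45G3, -0.61 for 2C11, -0.78 ± 0.15 (SE) for 2H1 and -0.83 for 3A4. The other probe set read 76.6 to 179 and was higher than parental in 7 of 8 clones, by 0.54 in 47C2, 0.65 in 8G12 and 0.81 ± 0.18 (SE) in 17H5, and it read -0.09 in 2H1. When all LLGL2 probe sets were averaged, the 47C2 difference turned to 0.03.

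**Figure D2:**
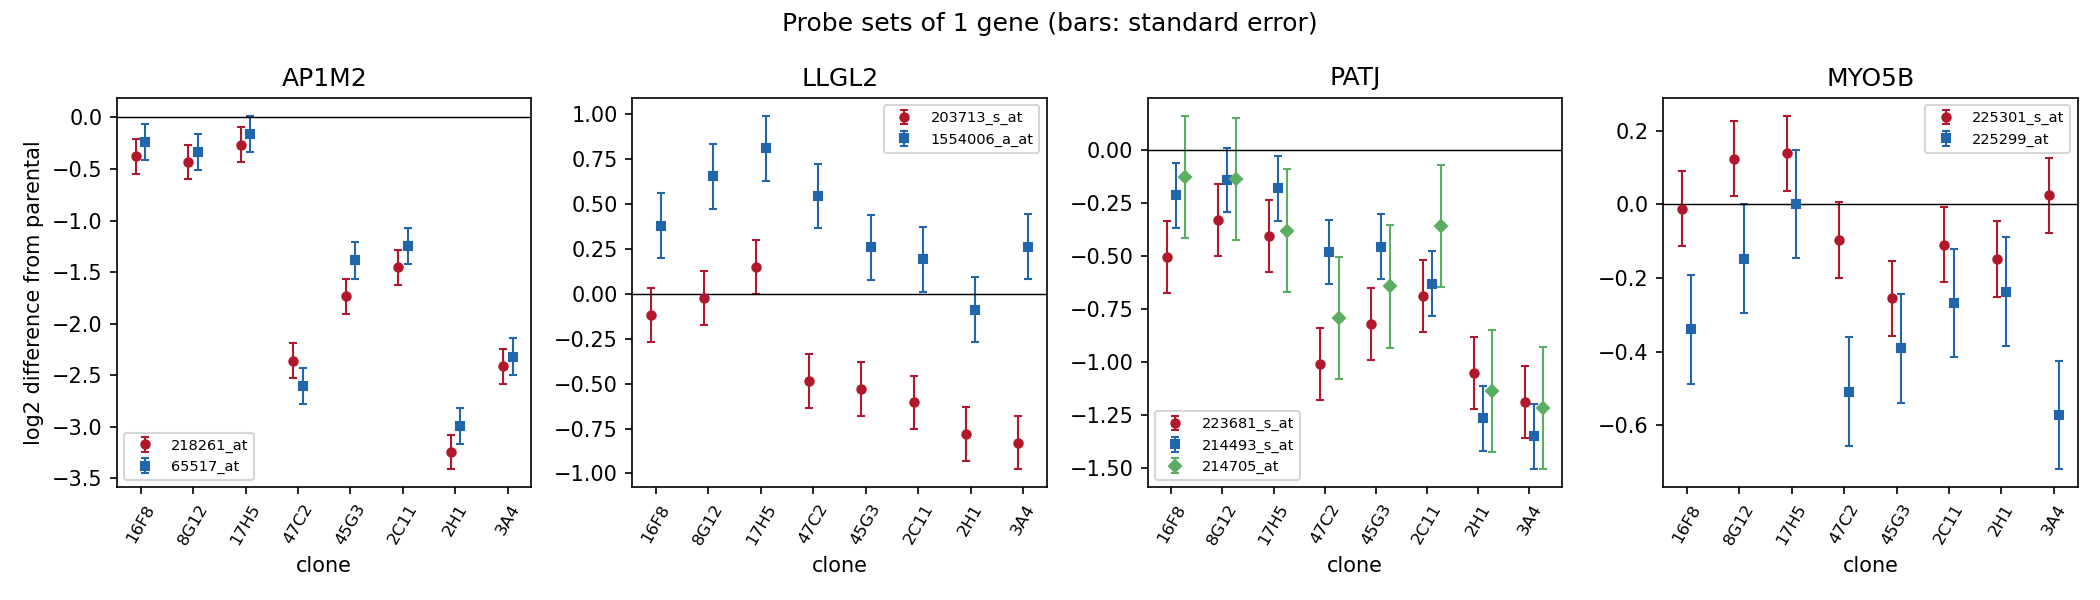
Log2 difference from parental (y axis) in the 8 other clones (x axis) for the 4 genes with more than 1 probe set past the filter; points are limma estimates and bars standard errors. The pairs for AP1M2 and the trio for PATJ share a sign in the low clones, whereas the LLGL2 pair differs, at -0.48 and 0.54 in 47C2.

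PRSS8 encodes prostasin, a membrane-anchored serine protease of epithelia that activates the sodium channel. It read 127 and 84.4 in parental and 80.6 and 92.1 in 16F8. The R140Q clones gave 120.5 and 103.5 (8G12) and 129 and 91.9 (17H5). It read 40.8 and 39.8 in 47C2 and 49.0 and 45.2 in 45G3. The IDH1 clones gave 51.3 and 58.8 (2C11), 31.0 and 23.1 (2H1), and 25.7 and 19.7 (3A4). The wild-type and R140Q arrays overlapped one another, and all of them exceeded the arrays of the 5 other clones. The log2 difference from parental was -1.31 for 47C2, -1.10 for 45G3, -0.89 for 2C11, -1.87 for 2H1 and -2.10 ± 0.22 (SE) for 3A4.

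TTC22, a tetratricopeptide-repeat protein, did not keep to the genotypes. It read 117 and 99.7 in parental and 225 and 200.3 in 16F8, so the wild-type clones differed from each other by 0.96 ± 0.24 (SE) on the log2 scale. It read 229 and 216 in 8G12 but 107 and 105.5 in 17H5. It read 60.7 and 71.1 in 47C2, 163.5 and 115 in 45G3, 144 and 113 in 2C11, and 34.3 and 18.5 in 2H1. In 3A4 it read 2.2 and 1.2, below the median of those arrays, so its difference of -4.83 depends on the added 2.2. The 3 other TTC22 probe sets read at most 11.

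Each clone was set against parental in 1 limma model over the 18 arrays, and a gene was called at a Benjamini-Hochberg adjusted p under 0.05 over all 12541 genes tested. Since the genes had been chosen on these comparisons, the counts that follow are not evidence and stand beside the share of all genes called in the same direction. In 47C2, 9 of the 10 genes were called lower (13.8% of all genes), in 45G3 7 (14.7%), in 2C11 7 (12.5%), in 2H1 9 (16.3%) and in 3A4 9 (19.6%). In 8G12 2 were called lower (7.06%), RAB25 and MAL2, in 17H5 1 (4.97%), RAB25, and in 16F8 1 (9.58%), PATJ. TTC22 was called higher in 16F8 (12.4% of all genes) and in 8G12 (11.4%), and MYO5B, by its brighter probe set, in 0 of 8 comparisons. The median log2 difference of the 10 genes was -1.02 for 47C2, -1.46 for 2H1, -1.69 for 3A4 and -0.09 for 17H5, and that of all genes lay between -0.02 and 0.02 in those comparisons. Of the 47 calls, 32 held when each array in turn was left out, and 28 held under every alternative tried. Without parental replicate 1, RAB25 was no longer called in 8G12 and 17H5, PRSS8 in 2C11, CRB3, LLGL2 and TTC22 in 47C2, and PATJ in 16F8. Without parental replicate 2, MAL2 was lost in 8G12, LLGL2 in 45G3, PARD6B in 2C11, TTC22 in 16F8 and 8G12, and again PATJ in 16F8 and CRB3, LLGL2 and TTC22 in 47C2. The remaining losses were CRB3 in 2H1 and LLGL2 and PATJ in 2C11, each without an array of that clone. Other settings also ended the calls of PATJ in 45G3 and 47C2 (probe set of highest variance), CRB3 in 45G3 (poly-A level as a covariate) and LLGL2 in 3A4 (mean of all probe sets).

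**Figure D3:**
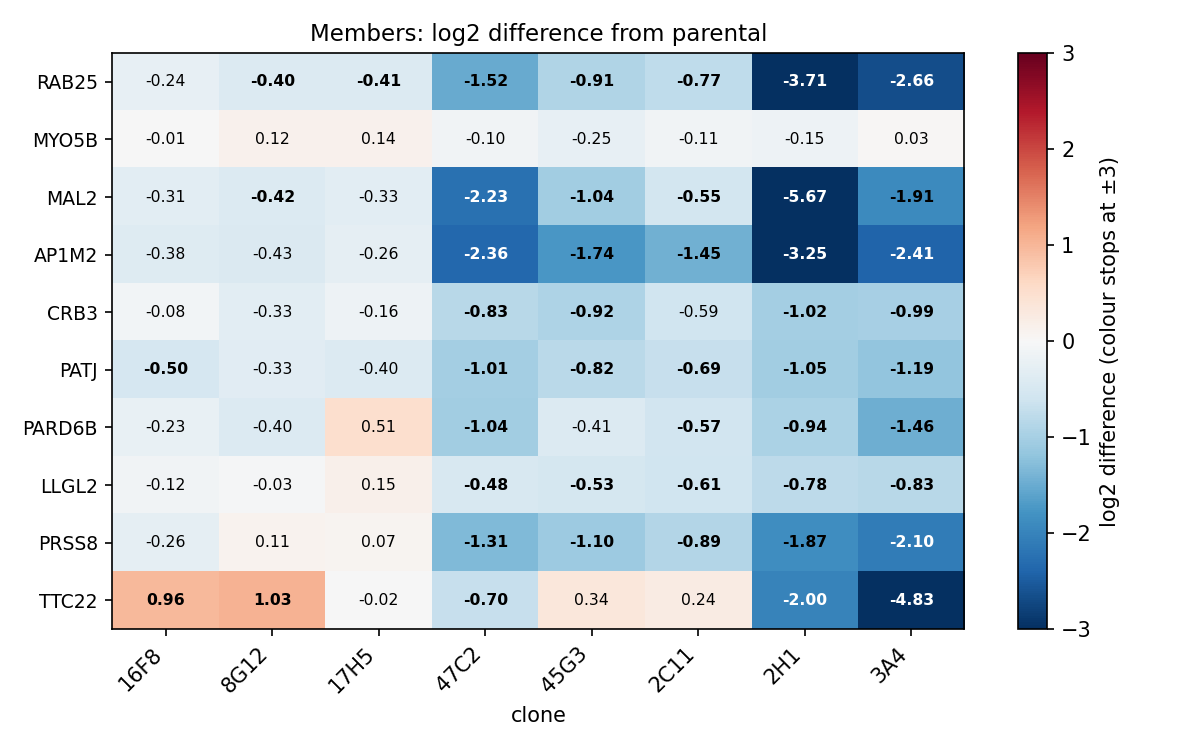
Log2 difference from parental (colour and printed value) of the 10 genes in the 8 other clones. Bold values have a limma adjusted p under 0.05; the lowest value of each gene but MYO5B lies in 2H1 or 3A4, down to -5.67 for MAL2 in 2H1 and -4.83 for TTC22 in 3A4.

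Set against 16F8, the clone that went through targeting but expresses no mutant allele, 9 of the 10 genes were called lower in 2H1 (10% of all genes), 9 in 3A4 (16.0%), 2 in 2C11 (1.28%), 6 in 47C2 (4.13%) and 3 in 45G3 (1.22%). In 8G12 0 were called lower (0.104%), and in 17H5 TTC22 was called lower (4.14%) and PARD6B higher (4.43%). These comparisons share the 16F8 arrays. Of the 31 calls, 20 held in all fits that left out 1 array and 19 under every alternative. Without the 4 arrays with high poly-A controls, both 2C11 calls, AP1M2 (-1.08) and RAB25 (-0.53), were lost. Without 16F8 replicate 1, CRB3 and PATJ were no longer called in 2H1 and 3A4, PARD6B in 2H1 and 47C2, RAB25 in 2C11 and TTC22 in 17H5, and without 16F8 replicate 2, MAL2 in 45G3, PRSS8 in 47C2, and PARD6B and TTC22 in 17H5.

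Clones of 1 genotype differed from each other. 2H1 differed from 2C11, the other R132H clone, by -5.13 for MAL2, -2.94 for RAB25, -2.24 for TTC22, -1.79 for AP1M2 and -0.98 for PRSS8 on the log2 scale, and these 5 genes were called lower (2.46% of all genes). 47C2 differed from 45G3, the other R172K clone, by -1.19 for MAL2, -1.04 for TTC22 and -0.61 for RAB25, and these 3 were called (1.88%). 17H5 exceeded 8G12, the other R140Q clone, by 0.91 for PARD6B (1.58% of all genes called higher) and differed from it by -1.05 for TTC22 (1.79%). TTC22, MAL2 and RAB25 were thus called in more than 1 of these pairs, and AP1M2, PRSS8 and PARD6B in 1 each. CRB3, LLGL2, PATJ and MYO5B were not called in any of them. Leaving out 1 array ended the PARD6B call (without 8G12 replicate 1 or 17H5 replicate 2), the TTC22 call between the R140Q clones (without any of their 4 arrays), the PRSS8 call (without either 2C11 array or 2H1 replicate 2), and in the R172K pair those of RAB25 (without 47C2 replicate 2) and TTC22 (without either 47C2 array or 45G3 replicate 1). The MAL2 calls and those of RAB25, AP1M2 and TTC22 between the R132H clones held.

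Genotypes were compared with the clone as the replicate, on 9 clone means. IDH1-mutant clones (n = 3) differed from wild-type clones (n = 2) by -2.55 ± 1.14 (SE) for MAL2, -2.26 ± 0.65 for RAB25, -2.18 ± 0.63 for AP1M2 and -1.49 ± 0.47 for PRSS8. IDH2-mutant clones (n = 4) differed from wild-type by -0.85 ± 1.08, -0.69 ± 0.62, -1.01 ± 0.60 and -0.43 ± 0.45 for the same genes. None of the 10 genes passed limma's adjusted threshold in 4 genotype comparisons, nor did any of the 12541 genes except 1 (0.00797%) that was higher in IDH2-mutant than in IDH1-mutant clones. At an unadjusted p under 0.05 there were 3 of the 10 genes for mutant against wild-type (864 of all 12541 genes). There were 9 for IDH1-mutant (1925 of all), 0 for IDH2-mutant (633) and 5 for IDH2-mutant against IDH1-mutant (1652). The genes had been picked for differing between these clones, so these counts and the orders of clones that follow are not evidence. RAB25, MAL2 and CRB3 had all 7 mutant clone means below both wild-type means, a pattern held by 2.94% of all genes. For MAL2 and CRB3 the gap between 17H5 and 16F8 was smaller than its SE, at -0.02 ± 0.12 and -0.08 ± 0.24 on the log2 scale. For 8 of the 10 genes, MYO5B and TTC22 apart, the 5 clones with R132H, R132C or R172K all lay below the wild-type and R140Q clones, as 6.00% of all genes did, but for PARD6B the gap between 45G3 and 8G12 was within the spread of their arrays. For PATJ, the 2C11 arrays at 148 and 119 overlapped those of 16F8 and 17H5, and for CRB3 a 2C11 array matched 8G12. By its other probe set LLGL2 did not show this order.

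Over the 9 clone means, the range in log2 signal was 5.86 for TTC22, 5.67 for MAL2, 3.71 for RAB25 and 3.25 for AP1M2, against a median of 0.63 over all genes tested. It was 2.20 for PRSS8, 1.97 for PARD6B, 1.19 for PATJ, 1.02 for CRB3, 0.98 for LLGL2 and 0.39 for MYO5B. Pearson's r of each gene with the mean of the other 9 was 0.985 for PRSS8, 0.980 for AP1M2, 0.944 for LLGL2, 0.935 for CRB3, 0.919 for PATJ and 0.905 for RAB25. It was 0.842 for PARD6B, 0.778 for MAL2, 0.686 for TTC22 and 0.501 for MYO5B. With ZEB1, whose mean signal ran from 109 in 16F8 to 430 in 3A4, r was -0.95 for PRSS8, -0.943 for AP1M2, -0.874 for RAB25, -0.751 for MAL2 and -0.539 for MYO5B. These are descriptions over 9 points that share a cell line, a normalisation and, in pairs, a genotype.

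The tested genes outside the set whose clone means most resembled the average of the 10 genes, each centred and scaled, were ELMO3 (r = 0.993), C1orf210 (0.990), GALNT12 (0.987), HTATSF1P2 (0.986) and CDS1 (0.983), over 9 clones. C1orf210 had the widest range of these, at -3.27 for 2H1, -2.87 for 3A4 and -2.11 for 47C2 against -0.16 for 17H5. The most opposite were PYCARD-AS1 (-0.978), CAVIN1 (-0.977), IGFBP6 (-0.972), SYTL4 (-0.969) and ZCCHC24 (-0.969). IGFBP6, a secreted binding protein of insulin-like growth factors, was 2.13 higher than parental in 3A4 and 2.10 higher in 2H1 on the log2 scale.

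Relatives of RAB25, MAL2 and LLGL2 had smaller differences in the R132 and R172K clones. For LLGL2 this refers to its brighter probe set, as its probe sets disagreed. The genes of the set had been picked for differing between these clones, and their relatives were listed by function. Smaller differences in the relatives were therefore favoured in advance and are no evidence. RAB11A and RAB11B, the ubiquitous relatives of RAB25, differed from parental by -0.27 to 0.17 and by -0.29 to -0.07, and 1 of these 16 values passed, RAB11B in 2H1. MALL, a relative of MAL2, ran from -0.36 to 0.06 and fell in 45G3 (-0.36, limma adjusted p = 0.0159) and 2C11 (-0.33, adjusted p = 0.0287), while MAL itself was too dim to test. LLGL1 ran from 0.01 to 0.24 with no call. MYO5A had no call, and MYO5C fell in 3A4 by 0.46 (adjusted p = 0.000816) and in 47C2 by 0.32 (adjusted p = 0.013).

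AP1M1, the mu1A subunit of the ubiquitous AP-1 adaptor, whose place AP1M2 takes in AP-1B, went the other way. It read 111 and 328 in parental, 745.5 and 679.7 in 3A4 and 503 and 535 in 47C2. The rise passed the test in 3A4 (log2 1.88 ± 0.52, limma adjusted p = 0.00867) and in 47C2 (1.43, adjusted p = 0.0485). The 4 arrays with high poly-A controls were the 4 lowest for AP1M1, at 111 to 162, against 328 or more in the others. Without parental replicate 1 the 3A4 difference was 1.11 and no longer passed, and the 47C2 difference was 0.66. Without all 4 arrays the differences were 1.11 and 0.66, and both passed. Its partner subunits did less: AP1B1 rose in 2H1 (0.58) and 3A4 (0.63), and AP1G1 was not called in any clone.

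**Figure D4:**
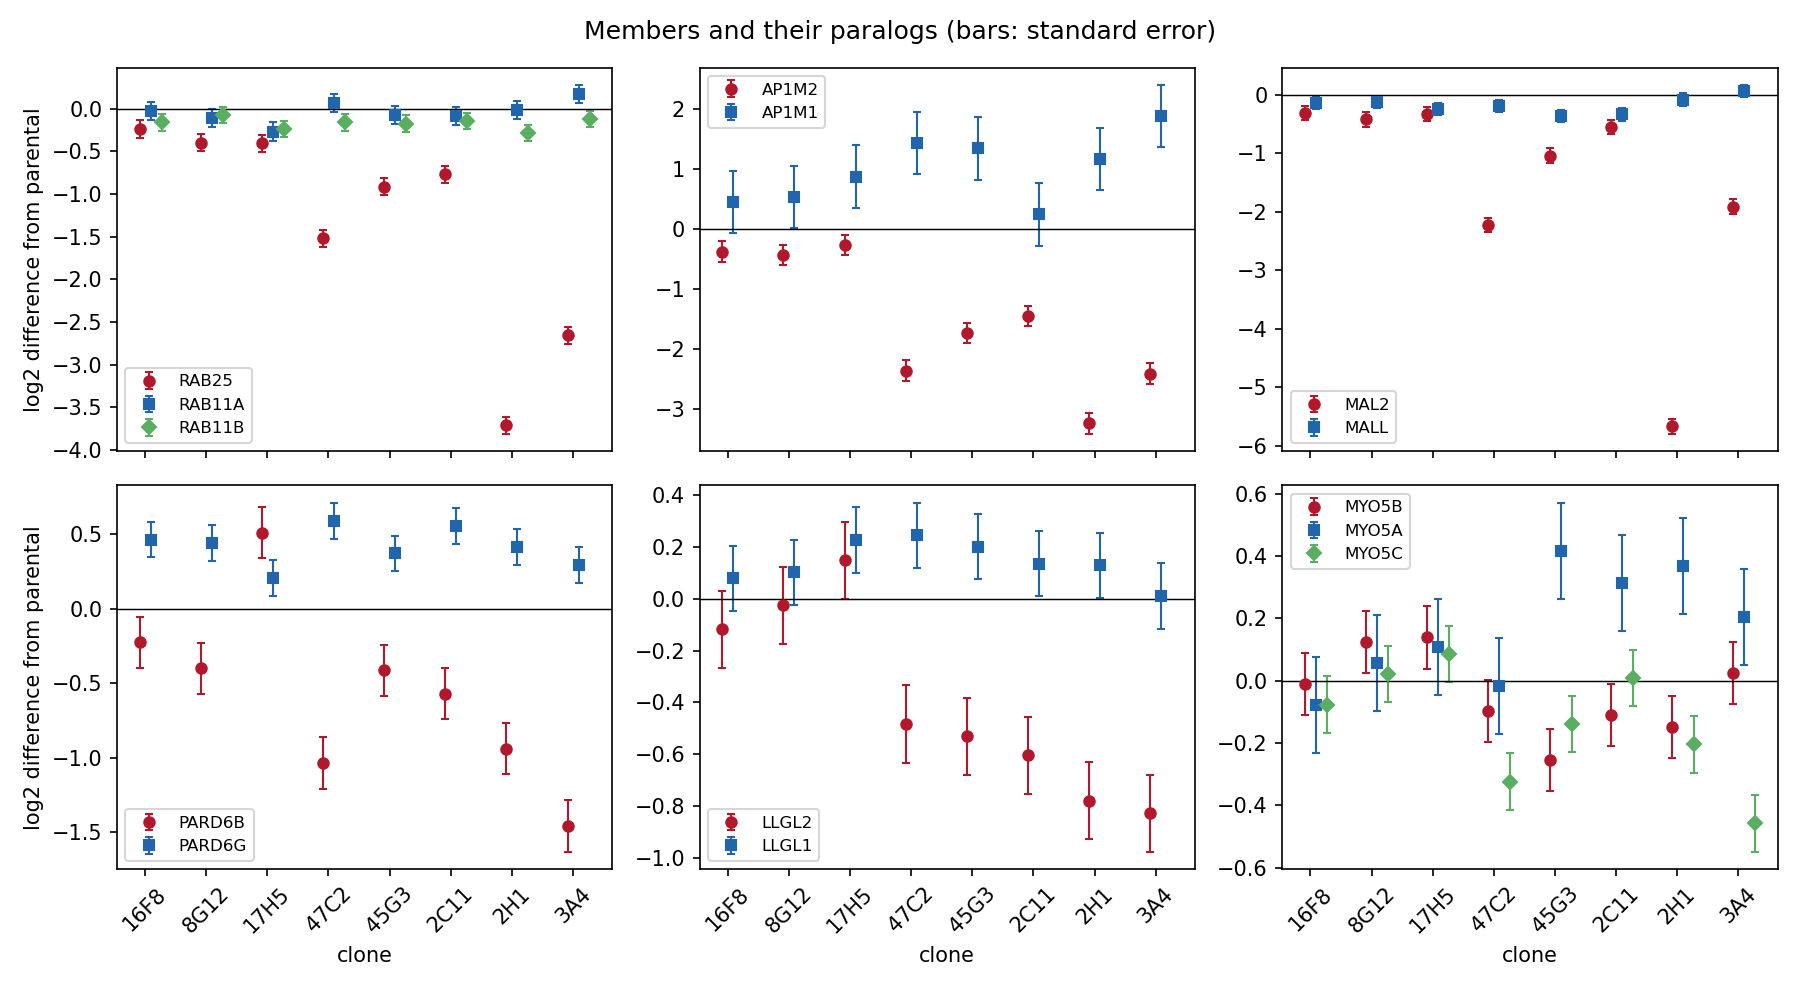
Log2 difference from parental (y axis, with a scale of its own in each panel) of 6 of the genes beside their paralogs, by clone; points are limma estimates and bars standard errors. RAB25 reached -3.71 while RAB11A stayed within -0.27 to 0.17, and AP1M2 reached -3.25 while AP1M1 ran from 0.24 to 1.88. The parental arrays read 111 and 328 for AP1M1, the lower one with a high poly-A level, so its differences depend on that array. The 6 genes had been picked for differing between these clones and the paralogs had not, so the contrast is a description.

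Beyond these genes, 99 further genes of the same pathways were listed by function, of which 83 could be tested. Against parental, 76 of their 664 gene and clone pairs fell and 58 rose, shares of 11.4% and 8.73%, against 12.3% and 13.2% of all genes over the same comparisons, which all share the parental arrays. With the poly-A level as a covariate 117 pairs were lower. The median log2 difference of the 83 genes was 0.02 in 2H1 and 0.01 in 3A4, close to the medians of all genes. The shares of all genes called higher than parental were 12.4% (16F8), 11.4% (8G12), 6.88% (17H5), 14.2% (47C2), 15.1% (45G3), 13.4% (2C11), 14.7% (2H1) and 17.6% (3A4). In the comparisons between genotypes 0 of 332 pairs passed.

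The prostasin cascade was the group with falls only. Of its 5 tested genes, 4 fell in at least 1 clone. Of 40 pairs, 17 were lower (42.5%) and 0 higher, against 12.3% and 13.2% of all genes. SPINT1 gave 6 and TMPRSS4 gave 5 of the 17, with limits given below. The group median in 2H1 was -1.12. TMPRSS2, HPN, SCNN1B and SCNN1G did not pass the filter and were not tested. SCNN1A, the alpha subunit of the epithelial sodium channel, read 419 and 398 in parental, 117 and 125 in 3A4, and 189 and 219 in 2H1. It fell in 3A4 (log2 -1.74 ± 0.12, limma adjusted p = 1.21e-08), 2H1 (-1.0), 47C2 (-0.79) and 45G3 (-0.48), and its wild-type and R140Q arrays all lay at or above 360. ST14 encodes matriptase, the protease that acts with prostasin, and fell in 2H1 (-1.14, adjusted p = 0.000127) and 47C2 (-0.77). SPINT1, which encodes the matriptase inhibitor HAI-1, fell in 6 clones, most in 2H1 (-1.12), but its probe set of highest variance gave 0.04 to 0.08 in 2C11, 16F8 and 45G3. The related inhibitor SPINT2 was not called. TMPRSS4, another transmembrane protease, fell in 5 clones, but it read only 14.4 to 19.2 in parental and at most 2.4 in those 5. Every clone except parental had an array below 12.3, the lowest array median. TMPRSS4 thus passed the filter through parental alone, where it is high, so its falls are no evidence.

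The group of recycling endosome and apical exocytosis had 32 of 264 pairs lower and 21 higher over 33 tested genes (12.1% and 7.95%), near or below the 12.3% and 13.2% of all genes. RAB27B, a GTPase of regulated secretion, read 64.2 and 75.7 in parental, 120 and 118 in 16F8, 480.2 and 426.5 in 3A4, and 371 and 361 in 2H1. It rose in 8 of 8 clones, 16F8 included, from 0.75 in 16F8 to 2.66 ± 0.17 in 3A4 (limma adjusted p = 5.92e-09). Against 16F8 it still rose in 4 clones, by 1.91 (3A4), 1.60 (2H1), 1.32 (47C2) and 0.78 (45G3), where 10.4%, 6.44%, 2.28% and 0.949% of all genes were called higher. SYTL2, a synaptotagmin-like effector of Rab27, read 58.8 and 51.4 in parental and 411 and 416 in 3A4, and it rose in 3A4 (2.86), 2H1 (2.46) and 47C2 (1.64). SYTL4, another such effector, rose in 3A4 (1.29), 2H1 (1.18), 47C2 (0.82) and 45G3 (0.64). SYTL1, by contrast, fell in 7 clones, 16F8 among them (-1.21). RAB11FIP4, a Rab11 effector, fell in 2H1 (-1.60) and 3A4 (-1.34).

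Among 20 tested polarity genes 5 of 160 pairs fell (3.12%) and 14 rose (8.75%), both below the shares of all genes. SCRIB, the scaffold of the Scribble module, rose in 5 clones, most in 3A4 and 8G12 (0.82 each) and also in 16F8 (0.67). PARD6G, a relative of PARD6B, rose in 6 clones by 0.37 to 0.59, 16F8 included, and PARD6A was not called. PALS1, the partner of CRB3 and PATJ, rose in 2C11 (0.67), 2H1 (0.60) and 45G3 (0.44), and PRKCI, an atypical protein kinase C, was not called. LIN7A, a PALS1-binding scaffold, fell in 3A4 (-1.38) and 47C2 (-0.53, but 0.15 by another probe set). CRB1, CRB2 and MPDZ were too dim to test.

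In the AP-1 group 0 of 112 pairs fell and 14 rose (12.5%, near the 13.2% of all genes). GGA2, a clathrin adaptor of the Golgi, rose in 6 clones by 0.58 to 1.08. In each of the 4 clones with a high poly-A array that array had the lower GGA2 signal, in parental 328 against 439, and without the 4 arrays the rises were 0.37 to 0.87. In the MAL and raft group 22 of 88 pairs fell (25%) and 9 rose (10.2%), against 12.3% and 13.2% of all genes. CD55 alone gave 8 of these falls and NHERF1 alone 8 of these rises. CD55, a complement regulator with a lipid anchor, fell in 8 of 8 clones by 0.29 in 3A4 to 1.30 in 2C11, 16F8 included (-1.10), although another probe set gave 0.01 in 3A4, and NHERF1, an apical scaffold, rose in 8 of 8 by 0.44 to 0.67. DPP4, an apical peptidase, fell in 3A4 (-1.59) and rose in 17H5 (0.83). RAB27B, SYTL1, CD55 and NHERF1 thus differed from parental in wild-type 16F8 as well as in mutant clones.

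**Figure D5:**
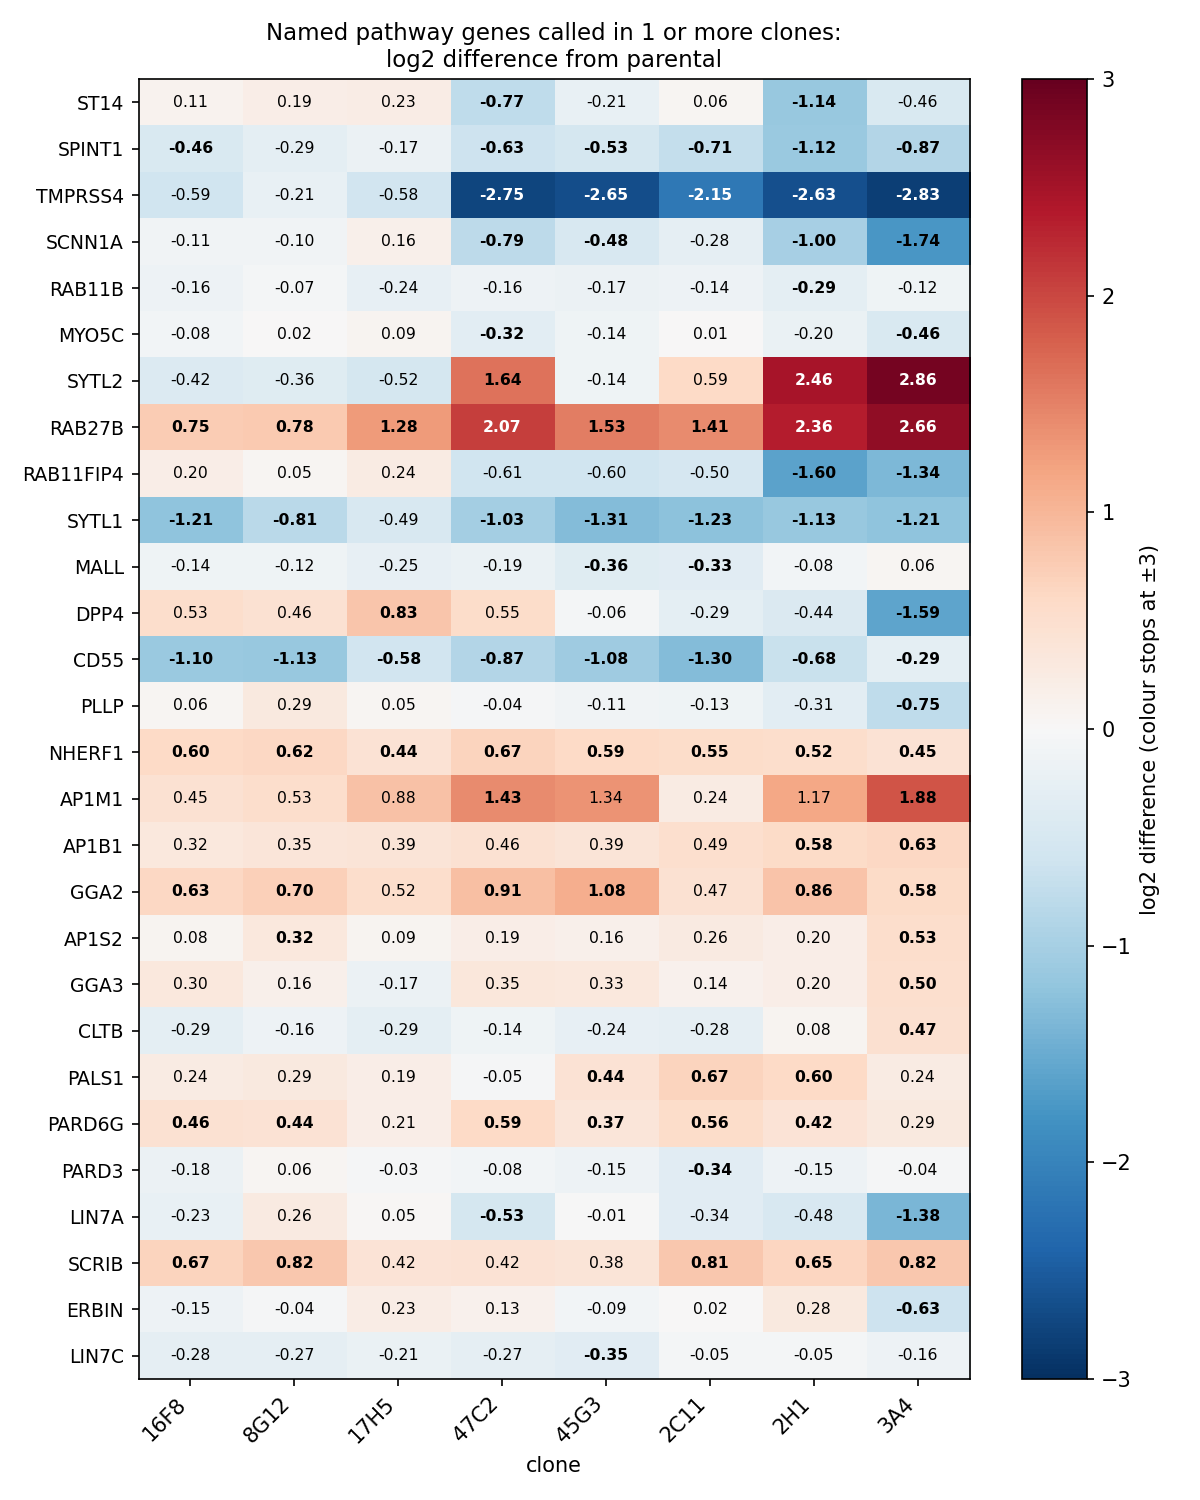
Log2 difference from parental (colour and printed value) of the named pathway genes with a call in at least 1 clone, grouped from the prostasin cascade at the top to the polarity complexes at the bottom. Bold values have a limma adjusted p under 0.05. RAB27B is positive in all 8 clones, up to 2.66 in 3A4. TMPRSS4, which passed the filter through parental alone, reaches -2.83.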

How the data were processed

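The authors deposited MAS5 signal intensities, per the labels, for 18 arrays of total RNA that had been amplified and labelled with biotin; how MAS5 was set, and its version, is not given in sources used here. All 54675 probe sets were taken as log2(signal + 2.2), where 2.2 is the 25th percentile of all values. Of these, 41091 had 1 gene symbol in the platform annotation and were named by it, 1801 had several, 11721 had none and 62 were controls. Probe sets entered the test if some clone had both its arrays at or above the array median, and a gene was represented by its probe set of highest mean, which gave 12541 genes.

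limma 3.58.1 in R 4.3.3 was used for all models (lmFit, eBayes with a trend), two-sided, with Benjamini-Hochberg adjustment over all genes and a threshold of 0.05. Clones were compared on the 18 arrays, genotypes on the 9 clone means. The number of arrays, 2 per clone, limits the precision. The script was tested on simulated data. Named are all 10 genes, their listed paralogs and partners, up to 4 others per group of largest change, the 5 most alike and 5 most opposite genes, and ZEB1. The genes and lists were chosen with earlier results of these data known. Alternatives covered the offset, the filter, quantile normalisation, the probe set rule, the poly-A level, the replicate number as a block and each array left out. Same-numbered replicates did not deviate together as a rule: the correlation of their deviations exceeded 0.1 in 4 of 36 pairs of clones, from -0.353 to 0.383. Some pairs of clones thus shared deviations. The 4 arrays with high poly-A controls do not all carry the same replicate number.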

Additional observations from a re-analysis of the deposited data

Results flagged for a closer look

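MAL2 in 2H1 lay far from the other 6 mutant clones: its gap to the nearest clone was 3.44 of a range of 5.34 on the log2 scale, a ratio of 0.644 against a critical value of 0.568 for 7 clones. It was the single such case among 20 groups examined, and chance gives about 1 in 20. The genes had been picked for differing between these clones, and the groups mix genotypes and share clones. The ratio is therefore a description and no test.

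The R140Q and the R172K clones lay on opposite sides of the wild-type mean for 3 genes, a difference that was not tested. For LLGL2 the R140Q mean was 0.12 above and the R172K mean -0.45 relative to it, a difference of 0.57 on the log2 scale. By the other LLGL2 probe set both R172K clones lay above the wild-type mean of 6.71 (log2), at 7.07 and 6.78, so this holds for the brighter probe set only. For PRSS8 the values were 0.22 and -1.08, a difference of 1.3. For MYO5B they were 0.14 and -0.17, a difference of 0.31.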

How the results depend on the processing

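With the replicate number as a block, 45 gene and clone pairs of the 10 genes were lower than parental and 2 higher, as without the block, and against 16F8 31 were lower instead of 30. Over the other alternatives the 45 lower pairs ranged from 36 to 47, and with each array left out from 38 to 48; the 2 higher pairs ranged from 0 to 3, and were 1 without the 4 arrays with high poly-A controls. With each array left out, the 30 pairs lower than 16F8 ranged from 22 to 31 and the 1 higher from 0 to 1, and within genotypes the 9 lower ranged from 7 to 10 and the 1 higher from 0 to 1. Pathway pairs against parental ranged from 57 to 83 lower and 49 to 65 higher, and against 16F8 from 16 to 27 lower and 16 to 23 higher. With the poly-A level as a covariate, 117 pathway pairs were lower than parental instead of 76. Against 16F8, 15 pathway pairs were lower under a stricter filter instead of 25, and 35 higher with the mean of all probe sets instead of 20. Between genotypes, a fit on single arrays that took the clone as a random block gave 4 lower calls (AP1M2, LLGL2, PRSS8 and RAB25, IDH1-mutant against wild-type), 2 lower and 5 higher pathway calls; parental alone as the wild-type gave 1 lower pathway call; leaving out each clone gave 0 to 1 in each count. The sign turned with the mean of all probe sets for LLGL2 in 47C2 (0.03), and with the probe set of highest variance for SPINT1 in 2C11 (0.04), 16F8 (0.05) and 45G3 (0.08), CD55 in 3A4 (0.01), GGA3 in 3A4 (-0.03), LIN7A in 47C2 (0.15) and LIN7C in 45G3 (0.47); the cause was not tested. Signals below the array medians of 12.3 to 15.6, such as TTC22 in 3A4 at 2.2 and 1.2, limit what a difference shows.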
